A study of Arabidopsis thaliana with 6 samples.

Results

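AT2G37870, AT3G53980 and AT5G55450 are Arabidopsis thaliana genes described as lipid transfer protein-like. Each was taken as the probe set that the array annotation pairs with that locus and with no other gene, and the 3 are among 13355 genes with such a probe set. They were selected on their intensities against vector on these arrays: AT2G37870 and AT3G53980 were low in both microRNA lines, and AT5G55450 was high in the miR172a line. Their levels and log2 differences are therefore given as a description with no test. The gene table used for names lists these loci by locus tag alone, so the family name could not be checked against it.

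The data come from 6 one-colour expression arrays of vegetative apices, taken from short-day plants at day 7. The vector group was Columbia carrying the pML_Bart plasmid without an insert, the miR164b group overexpressed miR164b and the miR172a group overexpressed miR172a, both in Col-0, with 2 arrays per group. The labels name neither the promoter that drives the microRNAs nor the number of independent transformants. Whether a group's arrays stem from separate plant pools is not stated either, so a p-value here reflects array-to-array spread, which may be technical.

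Lipid transfer proteins are small secreted proteins whose conserved cysteines form disulphide bonds around a hydrophobic cavity that can hold a lipid. Members of the family are known for roles at the plant surface, where they take part in the deposition of cutin and wax, and some take part in defence signalling or respond to abscisic acid and water deficit. The family includes type 1 and type 2 proteins, proteins with a glycosylphosphatidylinositol (GPI) anchor, small proteins related to the defence protein DIR1, and hybrid proteins with a proline-rich stretch.

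The deposited unit is a linear scaled intensity for each probe set, with a mean of 200 on every array once the lowest and highest 2% of probe sets were removed. Levels are given on that scale, and log2 differences on the scale log2(intensity + 16), with their standard errors. Across probe sets the correlation was 0.991 to 0.994 within groups and 0.981 to 0.9872 between groups. The 25S rRNA control gave 4070 and 4093 for vector, 443 and 528.5 for miR164b, and 355 and 3462 for miR172a. The actin 3′/5′ signal ratio ran from 1.96 to 3.05, and the vector arrays and miR172a array 2 held the 3 highest values of both measures. Both measures thus separate the vector arrays from the miR164b arrays. What they reflect cannot be told apart from the miR164b label in any difference between these groups. The microRNAs were not measured. SNZ, a target of miR172, read 223 ± 18.8 under the miR172a label and 117 ± 13.1 under the vector label (log2 0.85 ± 0.11, limma adjusted p = 0.017). That call was lost in 7 of 12 alternatives, among them each of the 6 arrays left out (adjusted p from 0.0016 to 0.094). SMZ, another target of miR172, read 174 ± 4.8 in miR172a and 160 ± 3.5 in vector. Its log2 difference was 0.11 ± 0.08 (limma adjusted p = 0.51). SNZ and SMZ were the only targets examined, and no target of miR164 was. A lowered target mRNA was read for neither gene, so the labels alone give the directions below. The name miR172a stands for the arrays labelled miR172a throughout.

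The apex origin of the samples could be checked with few markers. Of 6 shoot apex markers 1 had a named probe set, CLV3, the signal peptide gene of the stem cell zone, which read 42.5 to 82.4 across the arrays. Of 5 root markers 1 did, the root hair expansin EXPA7, which read 33.1 on vector array 1 and 4.0 to 5.2 on the other 5 arrays. None of the 12 seed, 6 epidermis and 4 leaf markers had a named probe set.

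AT2G37870 was lower in both lines. Its vector readings were 393.6 and 275.3, its miR164b readings 80.4 and 54.0, and its miR172a readings 61.8 and 40.8. Every vector array lay above every array of the lines, and the arrays of the lines overlapped each other. The means were 334.5 ± 83.7 in vector, 67.2 ± 18.7 in miR164b and 51.3 ± 14.9 in miR172a (SD, n = 2), which put miR164b 4.98-fold and miR172a 6.52-fold below vector. The log2 difference from vector was -2.07 ± 0.25 in miR164b and -2.38 ± 0.25 in miR172a, the 9th and 8th lowest of the 22746 probe sets tested. The log2 difference of miR164b minus miR172a was 0.31 ± 0.25.

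Array 1 of each group read AT2G37870 higher than array 2, by a ratio of 1.43 in vector, 1.49 in miR164b and 1.51 in miR172a. Its highest value fell on vector array 1, the array with the high EXPA7 reading. Without that array the log2 differences from vector were -1.83 in miR164b and -2.13 in miR172a. AT2G37870 read 61.8 on miR172a array 1 and 40.8 on array 2, where 25S rRNA and the actin ratio were near their vector values. A link between its level and these controls was not tested.

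AT3G53980 was also lower in both lines, and lowest in miR164b. It read 244.5 and 300.6 in vector, 89.3 and 74.1 in the miR164b line, and 122.8 and 123.2 in the miR172a line. The order was vector, miR172a, miR164b, and no 2 groups overlapped. The means were 273 ± 39.7, 123 ± 0.28 and 81.7 ± 10.8 in that order (SD, n = 2), so vector stood 2.22-fold above miR172a and 3.34-fold above miR164b. The log2 difference from vector was -1.56 ± 0.13 in miR164b, rank 21 among the falls, and -1.05 ± 0.13 in miR172a, rank 109. The log2 difference of miR164b minus miR172a was -0.51 ± 0.13.

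The spread of AT3G53980 between arrays did not follow that of AT2G37870. Its higher vector reading was on array 2, with a ratio of array 1 to array 2 of 0.813. In miR172a that ratio was 0.997, and 25S rRNA read 355 on array 1 and 3462 on array 2. A link between the 2 was not tested. Over these 6 arrays the pair thus shared the contrast between vector and the lines, for which both were selected. The lowest mean was in miR172a for AT2G37870 and in miR164b for AT3G53980. The AT2G37870 arrays of the lines overlapped (log2 difference of miR164b minus miR172a 0.31 ± 0.25), so its order of the lines is not resolved.

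AT5G55450 was dim in vector and miR164b and brighter in miR172a. It read 12.8 and 21.0 in vector, 36.1 and 19.6 in the miR164b line, and 78.5 and 108.8 in the miR172a line. Both miR172a arrays lay above the other 4 arrays, and the vector and miR164b arrays overlapped. The means were 16.9 ± 5.8, 27.9 ± 11.7 and 93.7 ± 21.4 (SD, n = 2), so miR172a stood 5.54-fold above vector and 3.36-fold above miR164b.

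The log2 difference of AT5G55450 from vector was 1.73 ± 0.24 in miR172a, rank 18 among the rises, and 0.40 ± 0.24 in miR164b. The log2 difference of miR164b minus miR172a was -1.33 ± 0.24. The vector mean lies close to the offset of 16, and the log2 difference for miR172a was 2.42 with an offset of 1 and 0.96 with an offset of 64. The miR172a array with the low 25S rRNA value read 78.5 and the one with the high value 108.8.

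**Figure D1:**
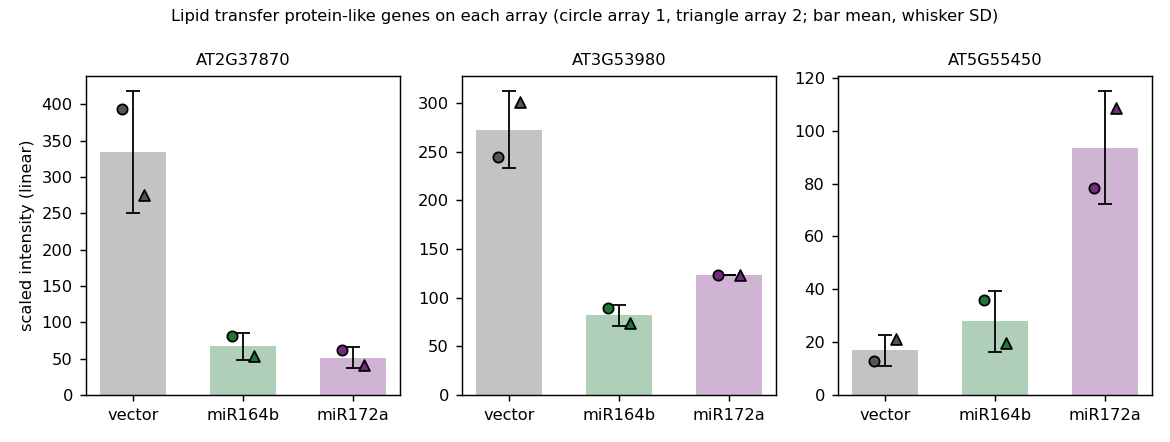
Scaled linear intensity of AT2G37870, AT3G53980 and AT5G55450 on each of 6 arrays, by group. Bars are group means and whiskers the SD (n = 2). The vector arrays are the highest for AT2G37870 (393.6 and 275.3) and AT3G53980 (244.5 and 300.6), and the miR172a arrays for AT5G55450 (78.5 and 108.8).

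In bulk apices, fewer cells that express a gene and less RNA of that gene per cell cannot be told apart, and this holds for every difference given here.

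The pattern of each gene over the 6 arrays was set against that of the other 13354 named genes, by the Euclidean distance between mean-centred log2(intensity + 16) profiles. The 5 nearest to AT2G37870 lay at distances of 0.630 to 1.14 and were AT4G39675, LEA4-5 (a late embryogenesis abundant protein), AT3G17520, AT3G02480 and AT5G64110. LEA4-5 read 158.4 and 136.6 in vector, 10.5 and 4.3 in the miR164b line, and 16.3 and 3.3 in the miR172a line. AT4G39675, the nearest, read 61.1 and 50.4 in vector and 0.4 to 4.1 on the arrays of the lines. LEA4-5 was thus low in both lines, as AT2G37870 was. AT3G53980 came 17th in this order, at a distance of 1.49. In the order of AT3G53980, AT2G37870 came 3539th at the same distance. Both were selected for low readings in both lines.

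The 5 genes nearest to AT3G53980 lay closer, at 0.303 to 0.515, and were HIS1-3, AT1G12010, AT5G61820, AT5G64110 and AT3G07820. HIS1-3, a linker histone known to be induced by drought, read 363.2 and 353.9 in vector, 113.1 and 103.3 in the miR164b line, and 166.8 and 191.1 in the miR172a line. It shares with AT3G53980 the order vector, miR172a, miR164b with no overlap. AT5G64110 was near both AT2G37870 and AT3G53980, and read 240.7 and 231.9 in vector and 73.6 to 83.7 on the arrays of the lines.

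AT5G55450 had a different set, AT1G19450, AT2G39850, AT4G21650, AT5G21100 and AT4G34400, at distances of 0.459 to 0.664. The nearest, AT1G19450, read 205.6 and 214.0 in vector, 295.6 and 272.1 in the miR164b line, and 781.3 and 842.9 in the miR172a line. AT2G39850 read 41.7 and 42.5, 66.2 and 66.6, and 181.9 and 188.3 in the same order. Both had miR172a readings above all other arrays and miR164b readings between those of the other groups. These genes were selected for likeness, so no test of their differences is given.

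**Figure D2:**
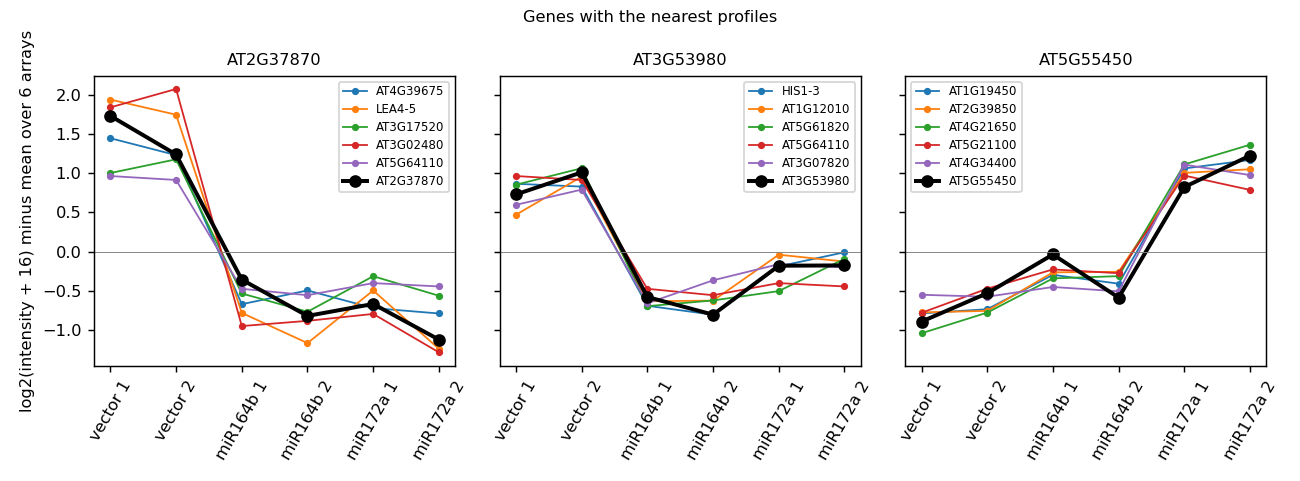
Log2(intensity + 16) minus its mean over 6 arrays (y axis) for AT2G37870, AT3G53980 and AT5G55450 (black) and the 5 genes nearest to each (colours), with arrays on the x axis. The genes near AT2G37870 and AT3G53980 are high on the vector arrays, and those near AT5G55450 on the miR172a arrays.

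The rest of the family was taken from a list of 89 loci, of which 40 had a named probe set. They comprise 4 of 13 type 1 proteins, 8 of 12 type 2 proteins, 13 of 27 with a GPI anchor and 7 of 18 hybrid proline-rich proteins. Another 8 of 14 came from a class of DIR1-like and related small proteins, called small DIR1-related here. The 5 listed seed-storage 2S albumins had none. The list was written from general knowledge, because the gene table gives only locus tags for the measured loci. Of the 40 genes 12 read below 16 on all 6 arrays and 10 reached 100 on some array, so a difference in the dim ones would be hard to see.

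Between miR164b and vector, 3 of the 40 fell and 0 rose by limma at an adjusted p under 0.05 (3 were higher at an unadjusted p under 0.05). That is 7.5% of the list, against 1.79% of all 22746 probe sets (0.84% fell and 0.95% rose). The list's median log2 difference was -0.10 and that of all probe sets -0.05. The type 2 gene AT3G18280 fell from 268.4 and 294.7 to 145.3 and 142.6 (log2 -0.89 ± 0.09, limma adjusted p = 0.014). The type 1 gene AT5G01870 fell from 812.8 and 843.6 to 475.7 and 472.6 (log2 -0.78 ± 0.10, limma adjusted p = 0.032). The hybrid proline-rich gene AT1G62510 fell from 299.2 and 258.2 to 154.1 and 152.3 (log2 -0.80 ± 0.11, limma adjusted p = 0.038). In each of these 3 genes both miR164b arrays lay below both vector arrays. A call with 2 arrays per group nearly always brings this, so it adds no support.

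The count of 3 falls was not kept with any single array left out, a fit that leaves 1 array in a group. It was 1 with the replicate block. The log2 differences stayed negative with single arrays left out. They ran from -0.96 to -0.83 for AT3G18280, -0.81 to -0.76 for AT5G01870 and -0.90 to -0.70 for AT1G62510. The AT5G01870 and AT1G62510 calls were each lost in 8 of 12 alternatives (adjusted p from 0.0033 to 0.234 and from 0.0043 to 0.245), and that of AT3G18280 in 5 (0.00092 to 0.156).

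Between miR172a and vector, 2 of the 40 fell and 0 rose by limma (3 were higher at an unadjusted p under 0.05), which is 5.0% of the list against 5.87% of all probe sets (2.64% fell and 3.23% rose), a share near that background. The median log2 difference was -0.085 for the list and -0.002 for all probe sets. AT4G33550, listed among the small DIR1-related proteins, fell from 293.9 and 331.6 to 66.8 and 100.4 (log2 -1.74 ± 0.17, limma adjusted p = 0.0093). Its call was lost without vector replicate 1 (adjusted p = 0.058) or vector replicate 2 (adjusted p = 0.059) and kept in the other 10 alternatives (adjusted p from 0.00047). AT3G18280 fell to 195.8 and 189.7 (log2 -0.51 ± 0.09, limma adjusted p = 0.033), and this call was lost in 8 of 12 alternatives (adjusted p from 0.0057 to 0.126). AT3G18280 is the listed gene that fell in both lines, and those comparisons share the vector arrays.

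The count of 2 was 0 without either vector array and 1 without any one of the other 4 arrays. It was 7, with 1 rise, when the 40% of probe sets with the lowest mean were left out. The share of all probe sets called in that setting is not given, so the 7 is not read as a result about the family.

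**Figure D3:**
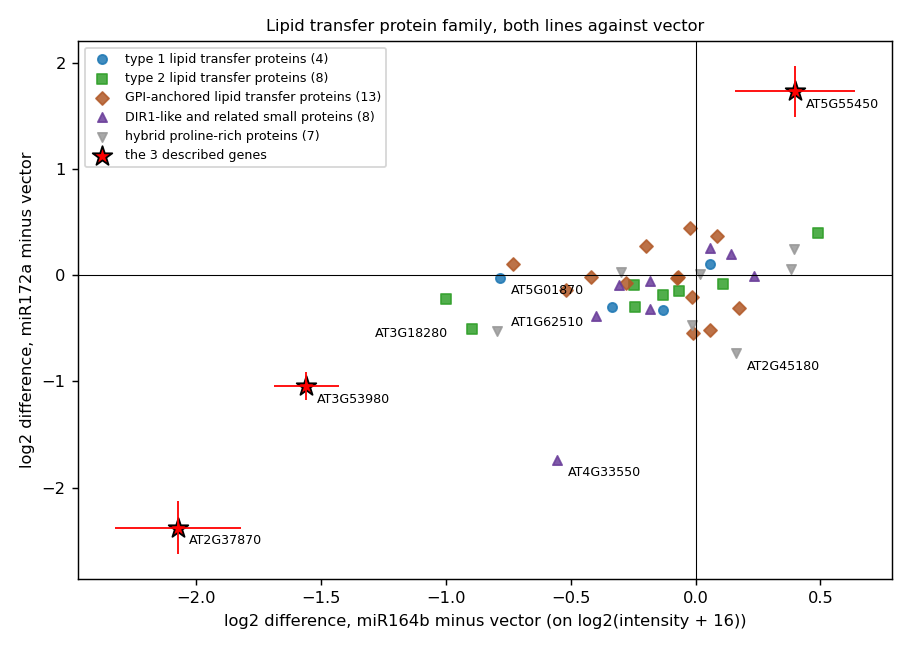
Log2 difference from vector in miR164b (x axis) and miR172a (y axis) for 40 listed lipid transfer family genes, by class, and for AT2G37870, AT3G53980 and AT5G55450 (stars, whiskers are standard errors). The listed genes lie between -1.001 and 0.49 on the x axis and between -1.74 and 0.45 on the y axis, and both axes share the vector arrays.

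Set beside these genes, the listed gene nearest to AT3G53980 in the size of its miR164b difference was AT1G66850, a dim type 2 gene that read 27.8 and 33.2 in vector and 12.3 and 3.0 in miR164b (log2 -1.001 ± 0.25). In miR172a the difference of AT4G33550, at -1.74, was larger than the -1.05 of AT3G53980 and smaller than the -2.38 of AT2G37870. The highest listed value in miR172a was that of the GPI-anchored gene AT2G27130 at 0.45 ± 0.10, against 1.73 for AT5G55450.

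The direct comparison of the lines asks where the family differs between miR164b and miR172a. Of the 40 genes 2 were higher and 2 lower in miR164b, which is 10% of the list against 7.14% of all probe sets (3.11% higher and 4.02% lower). AT4G33550 was higher in miR164b, at 207.7 and 206.8 against 66.8 and 100.4 (log2 1.19 ± 0.17, limma adjusted p = 0.019). The hybrid proline-rich gene AT2G45180 was higher in miR164b, at 3654.5 and 4083.5 against 1738.9 and 2453.3 (log2 0.90 ± 0.17, limma adjusted p = 0.040). The miR172a level of AT2G45180 was also below its vector readings of 3499.8 and 3400.2, by a log2 of -0.74 ± 0.17 that did not pass (limma adjusted p = 0.072).

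AT5G01870 was lower in miR164b than in miR172a, where it read 749.9 and 881.6 (log2 -0.76 ± 0.10, limma adjusted p = 0.017). AT2G27130 was lower in miR164b, at 130.9 and 119.8 against 190.4 and 169.8 (log2 -0.47 ± 0.10, limma adjusted p = 0.045), and median centring and quantile normalization were among the 10 of 12 alternatives that removed this call (adjusted p from 0.0094 to 0.227). The count of 4 was 0 without either miR164b array, 1 without miR172a replicate 1 and 2 without any one of the other 3 arrays. The AT2G45180 call was lost in 6 of 12 alternatives and those of AT4G33550 and AT5G01870 in 4 each, and the highest adjusted p of these 3 genes were 0.209, 0.132 and 0.124.

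**Figure D4:**
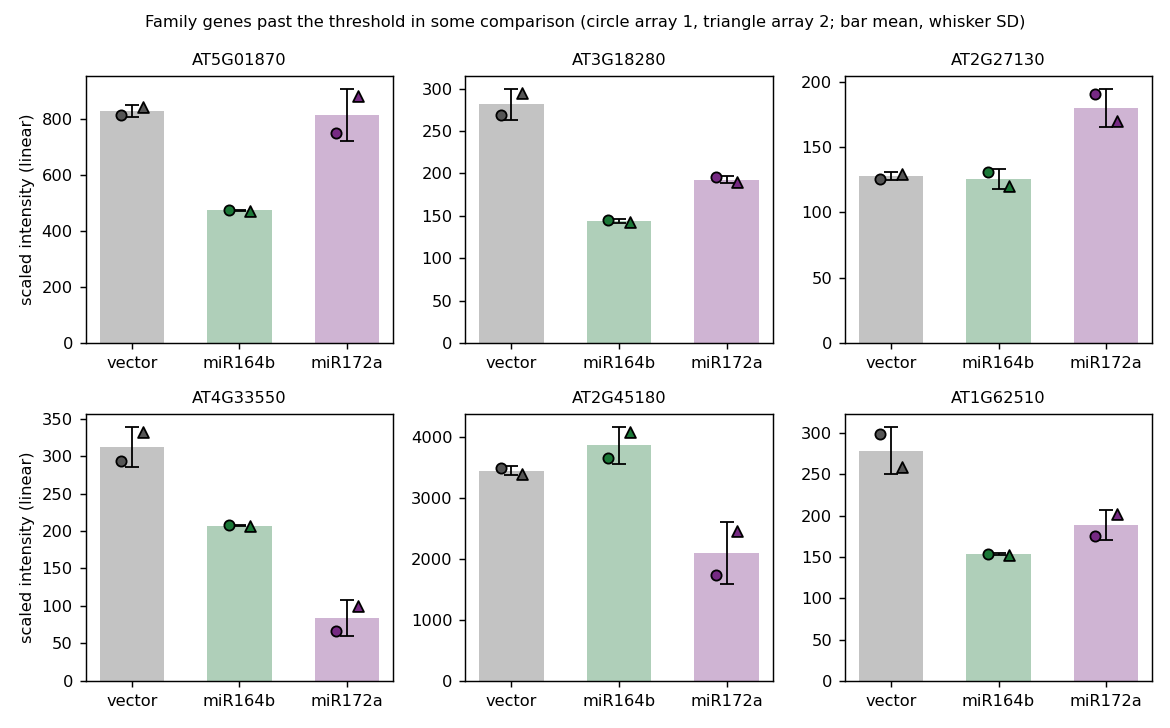
Scaled linear intensity on each of 6 arrays for the 6 listed family genes that passed the threshold in some comparison, with group means (bars) and SD (whiskers, n = 2). AT4G33550 is lowest in miR172a (66.8 and 100.4), and AT5G01870 is lowest in miR164b (475.7 and 472.6).

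The 3 listed genes with the highest mean level among those past no threshold were AT2G10940, AT5G48490 and AT1G48750. AT5G48490, of the small DIR1-related proteins, read 1892.5 and 2011.0 in vector, 1559.4 and 1584.9 in the miR164b line, and 1686.2 and 1989.9 in the miR172a line (limma adjusted p = 0.218 and 0.703 against vector). AT2G10940, of the hybrid proline-rich proteins, read 1914.7 and 2001.0, 2349.8 and 2823.4, and 2407.4 and 2242.6 in the same order (limma adjusted p = 0.166 and 0.295). AT1G48750, of the type 2 proteins, read 105.2 to 113.6 in vector and 82.7 to 92.0 in the lines (limma adjusted p = 0.226 and 0.117). These 3 genes passed in neither line.

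Genes next to the 3 loci were also examined, 5 protein-coding genes on each side in the gene table. Of these 30 neighbours 15 had a named probe set, 7 around AT2G37870, 7 around AT3G53980 and 1 around AT5G55450. AT5G55410 and AT5G55460, listed small DIR1-related genes within 3 genes of AT5G55450, are not analysed here. In miR164b against vector 0 of the 15 rose and 0 fell by limma, where 1.79% of all probe sets passed. At an unadjusted p under 0.05 there were 4 of the 15, against 18.5% of all probe sets, and their log2 differences ran from -0.33 to 0.76. The smallest p among them belonged to the genes next to AT3G53980 and AT2G37870. AT3G53990 read 643.6 and 651.9 in vector and 885.8 and 876.9 in miR164b (limma adjusted p = 0.063), and AT2G37880 read 8.8 and 8.2 against 19.6 and 32.2 (limma adjusted p = 0.107).

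In miR172a against vector 2 of the 15 neighbours rose and 1 fell, where 5.87% of all probe sets passed (3.23% higher and 2.64% lower). At an unadjusted p under 0.05 by limma there were 7 of the 15, against 21.3% of all probe sets. Among these, the uncalled AT2G37820, AT3G53940 and AT3G54000 were higher in miR172a. AT3G53990, uncalled and next to AT3G53980, was lower in miR172a, as AT3G53980 was (log2 -0.28 ± 0.08). AT2G37900, the third gene after AT2G37870, rose from 39.4 and 24.8 to 127.9 and 94.6 (log2 1.41 ± 0.19, limma adjusted p = 0.019), where AT2G37870 was lower. AT3G53960 rose from 48.2 and 48.6 to 69.0 and 70.8 (log2 0.42 ± 0.08, limma adjusted p = 0.047). AT5G55400, near AT5G55450, fell from 220.9 and 206.4 to 147.0 and 153.7 (log2 -0.46 ± 0.08, limma adjusted p = 0.038). Each of these called neighbours differed in the direction opposite to the lipid transfer protein-like gene it lies near, a gene selected on its own direction. Their calls were lost in 7, 10 and 8 of 12 alternatives, with adjusted p up to 0.097, 0.157 and 0.148.

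**Figure D5:**
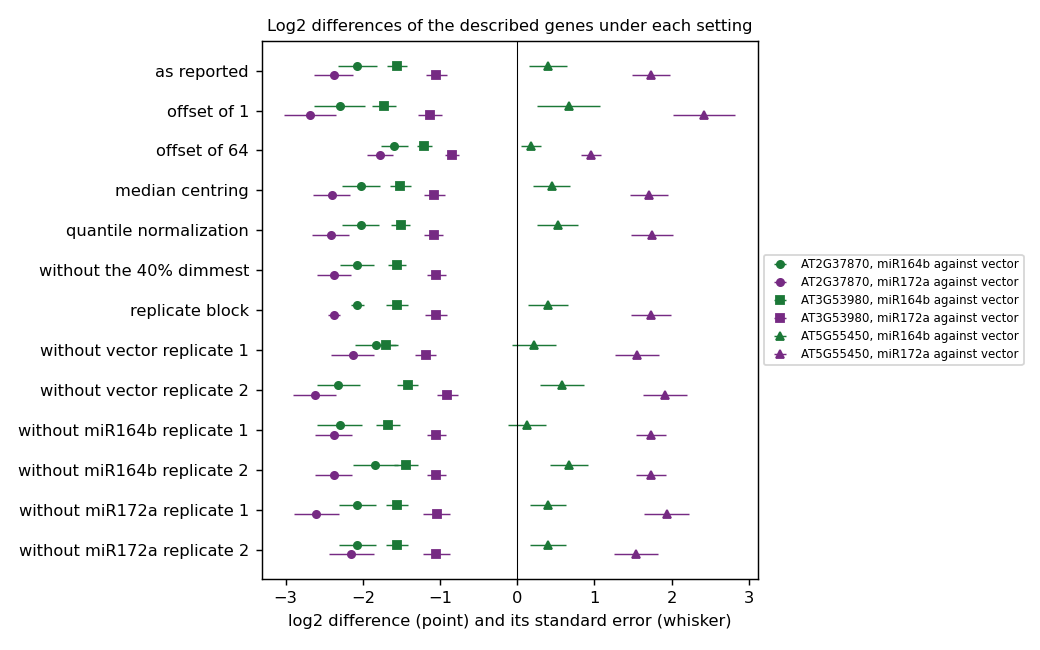
Log2 difference from vector (points) and its standard error (whiskers) of AT2G37870, AT3G53980 and AT5G55450 in each line, as reported and under 12 alternative settings. The points of AT2G37870 and AT3G53980 stay below 0 in both lines and those of AT5G55450 above 0 in each setting drawn. In miR164b the AT5G55450 whisker crosses 0 without miR164b replicate 1 or vector replicate 1. AT5G55450 has no point where the 40% dimmest probe sets were left out.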

How the data were processed

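A value per probe set from each of 6 arrays was used. The deposited values are linear intensities, with no software named per the labels, and detection calls were not used. The 64 AFFX control probe sets of 22810 were left out, and 22746 were tested. Of these 13513 paired with 1 gene, 503 with several and 8730 were not listed, and the brightest probe set stood for a gene. Names came from the array annotation and the TAIR10.1 gene table (13436 probe sets matched).

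Values were transformed as log2(intensity + 16), and limma 3.58.1 in R 4.3.3 estimated 1 mean for each group from the 6 arrays together (lmFit, eBayes, 3 residual and 2.69 prior degrees of freedom), two-sided, with Benjamini-Hochberg adjustment over all probe sets of a contrast and a threshold of 0.05. The number of arrays limits the precision. Figures used Python 3.11.15 and matplotlib 3.10.9.

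The genes, lists and tests were chosen with earlier results of these data known. Genes named are the 3 described, listed family genes past the threshold, the 3 brightest others, the 5 nearest profiles, and called neighbours. Uncalled neighbours named are the 2 of smallest p in miR164b and those at an unadjusted p under 0.05 in miR172a. These uncalled ones were chosen after their values were seen. A list by protein sequence and a promoter motif search had been planned, and protein and promoter sequences were not used here. Of 11 genes whose name in the gene table holds lipid transfer, 0 had a named probe set, so the locus list was used. Alternatives were offsets of 1 and 64, median centring, quantile normalization, leaving out the 40% dimmest probe sets, the replicate letter as a block, each array left out, and a threshold of 0.1.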

Additional observations from a re-analysis of the deposited data

Results flagged for a closer look

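The genes below were picked out because the difference between the lines itself passed the limma test at an adjusted p under 0.05. Among the listed lipid transfer family, miR164b minus miR172a was 1.19 on the log2 scale for AT4G33550, 0.90 for AT2G45180, -0.76 for AT5G01870 and -0.47 for AT2G27130. Among the neighbouring loci it was -1.74 for AT2G37900 (adjusted p = 0.0095) and 0.72 for AT3G53990, which read 885.8 and 876.9 in miR164b and 528.5 and 530.3 in miR172a (adjusted p = 0.0087). For the miR172 target SNZ (AT2G39250) it was -1.10 (adjusted p = 0.0073). AT2G37900, AT3G53990 and SNZ lost this call in 3, 4 and 3 of 12 alternatives, each when a single array of a line was left out (adjusted p up to 0.096, 0.086 and 0.082). Groups of 2 arrays are too small to look for a sample far from the others.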

How the results depend on the processing

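The log2 differences of AT2G37870 and AT3G53980 from vector stayed negative and those of AT5G55450 positive under each alternative run. The miR164b and vector arrays of AT5G55450 overlapped, so its positive sign in miR164b is not read as a rise. With an offset of 64 the miR164b differences were -1.59 (AT2G37870) and -1.21 (AT3G53980), and the miR172a differences -1.78, -0.84 and 0.96 (AT5G55450). With an offset of 1 AT3G53980 was -1.72 and AT5G55450 0.67 in miR164b, and AT2G37870 was -2.69 and AT5G55450 2.42 in miR172a. Between the lines AT3G53980 was -0.36 with an offset of 64, and AT5G55450 was -0.78 with 64 and -1.76 with 1. Over single arrays left out, the miR164b differences ran from -2.32 to -1.83 (AT2G37870), -1.70 to -1.42 (AT3G53980) and 0.13 to 0.67 (AT5G55450), the lowest of these without miR164b replicate 1. The miR172a differences ran from -2.62 to -2.13, -1.19 to -0.91 and 1.53 to 1.94, and those between the lines from 0.075 to 0.54, -0.63 to -0.40 and -1.61 to -1.06. AT5G55450 was too dim for the set without the 40% dimmest probe sets. The family count against vector in miR164b (3) was 0 with an offset of 1, and 0 to 1 without single arrays. In miR172a (2) it was 1 with an offset of 1, 5 with 64, 7 without the dimmest, 7 at an adjusted p under 0.1, and 0 to 1 without single arrays. Between the lines (4) it was 0 with an offset of 1, 8 at an adjusted p under 0.1 and 0 to 2 without single arrays. With the replicate block the family counts were 1 in miR164b and 1 in miR172a. The shares of all probe sets called under these alternatives are not given, so the counts are not read as results about the family. Deviations of same-lettered arrays correlated at -0.011, 0.105 and 0.079 across probe sets. That is weak over all probe sets and does not settle whether the letters pair the arrays for single genes. With the replicate block the standard error against vector went from 0.253 to 0.082 for AT2G37870. It went from 0.131 to 0.142 for AT3G53980 and from 0.241 to 0.259 for AT5G55450. The cause of the shifts in differences, counts and standard errors was not tested. Signal over background also limits the family, with 30 of 40 genes below 100 on all arrays.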

Other observations

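At an unadjusted p under 0.05, 14 of the 40 listed family genes differed between miR164b and vector, 3 higher and 11 lower, which is 35% of the list against 18.5% of all probe sets. For miR172a against vector there were 11, with 3 higher and 8 lower (27.5% against 21.3%), and between the lines 12 (30% against 23.8%). AT5G05960, of the small DIR1-related proteins, read 65.2 and 63.4 in vector, 51.1 and 39.4 in the miR164b line, and 47.3 and 43.6 in the miR172a line, and passed in neither line (limma adjusted p = 0.164 and 0.127). This gene was named after its values were seen.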
